A study of Mus musculus with 8 samples.

Results

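Cytochrome P450 enzymes of families 1 to 4 were examined in hepatocytes of adult mice, 2 weeks after the Gata4 gene was targeted for excision. The members were all genes whose array symbol began with Cyp1, Cyp2, Cyp3 or Cyp4 followed directly by a letter, if a probe was detected above the negative control beads (detection p of 0.05 or less) on 1 or more of 8 arrays. This rule used no difference between groups. It gave 61 probes for 43 genes, among 14850 features (9640 named genes and 5210 unnamed probes) tested on an array of 45281 probes. When a gene had several probes, the one with the highest mean over all arrays stood for it. There was 1 gene of family 1, 27 of family 2, 3 of family 3 and 12 of family 4, which includes the pseudogene Cyp4b1-ps2. In family 2, Cyp2d13 is annotated as a transcribed pseudogene.

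The 4 AAV-Cre samples came from mice given AAV8-Tbg-Cre, which carries the recombinase, and the 4 AAV-GFP samples came from mice given AAV8-Tbg-GFP, the control virus. All mice carried GATA4 fl/fl alleles on a CD1 x 129S1/SvImJ background and were 2-3 months old, so the AAV-GFP group shared the floxed alleles and the virus. Both viruses went in intravenously, and the Tbg promoter limits their expression to hepatocytes, so excision was directed at that cell type. RNA of hepatocytes isolated out of whole liver was measured on Illumina bead arrays (MouseWG-6 v2), 1 per sample. The labels give neither sex nor a mouse for each sample, so p-values measure only the spread between these samples.

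P450 enzymes are heme proteins of the endoplasmic reticulum that oxidise lipophilic molecules with electrons passed on by P450 reductase and cytochrome b5. Families 1 to 3 clear drugs, toxins and steroids, and family 4 hydroxylates fatty acids at or near their terminal carbon. The liver expresses most of them, many in a zone around the central vein, and tunes them through receptors that sense ligands: AhR for the 1A genes, CAR and PXR for 2B, 2C and 3A genes, and PPARα for 4A genes. In mice a large share also depends on sex, because males secrete growth hormone in pulses and females almost continuously, which is read out through STAT5b and the repressors Bcl6 and Cux2.

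The number of arrays limits the precision, as bead arrays give no read depth. Between 14788 and 16387 probes were detected per array, and no pair of arrays was a duplicate (correlations of 0.9734 to 0.9924). The Gata4 probe lay near background, at 6.28, 5.85, 5.72 and 5.84 in AAV-Cre replicates 1 to 4, against 5.31, 5.37, 5.02 and 5.10 in AAV-GFP replicates 1 to 4, and passed detection on 1 array, AAV-Cre replicate 1, so it checked nothing about the excision. The paper assessed excision by other assays, and reported a marked fall of GATA4 in hepatocytes by RT-qPCR, Western blot and ChIP. Xist, the RNA of the inactive X chromosome of female cells, stood at 5.07, 5.15, 5.33 and 5.11 in AAV-Cre replicates 1 to 4, against 13.33, 5.22, 5.16 and 13.78 in AAV-GFP replicates 1 to 4. The Y-linked gene Uty had 7.56, 7.18, 7.11 and 7.26 in AAV-Cre replicates 1 to 4, against 6.08, 7.09, 7.51 and 5.93 in AAV-GFP replicates 1 to 4. AAV-GFP replicates 1 and 4 thus had high Xist and the lowest Uty signal, while the other 6 arrays had the reverse, and this split lay within the AAV-GFP group only. Results that rest on AAV-GFP replicates 1 and 4 are therefore given with and without them. All signals below are log2 signals after background correction and quantile normalization, and each difference is AAV-Cre minus AAV-GFP on that scale.

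No P450 gene of families 1 to 4 passed the test between AAV-Cre and AAV-GFP hepatocytes. At a limma adjusted p under 0.25, 0 of 43 genes were called, where 1 of 14850 features was (0.00673%), an unnamed probe lower in AAV-Cre. The smallest adjusted p of a P450 gene was 0.535. At an unadjusted p under 0.05, 1 gene was higher (Cyp2d12, 2.33% of 43, against 4.99% of all features) and 2 were lower (Cyp4f16 and Cyp2c29, 4.65% against 4.07%). By the SAM statistic 0 P450 genes were called, and 27 of all features. This SAM was computed on the values and features used here. The paper, with its own normalization and filter, reported far more genes by SAM at this threshold, and the gap was not examined. All 4 AAV-Cre arrays lay above all 4 AAV-GFP arrays for 1 gene, Cyp3a11 (2.33%, against 3.1% of all features), and below them for 2 genes, Cyp2a12 and Cyp2d26 (4.65% against 1.7%). Each of these counts was 1 or 2 genes.

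Differences went in both directions, with 23 genes above and 20 below 0, a median of 0.07 and a range from -1.96 to 3.61. The median over all features was 0.04. The median was 0.42 for family 1 (1 gene), -0.07 for family 2 (10 of 27 above 0), 0.10 for family 3 (3 of 3 above 0) and 0.17 for family 4 (9 of 12 above 0). Among the larger subfamilies, 10 of 11 genes of 2C lay below 0 with a median of -0.20, 4 of 7 genes of 2D above 0 with a median of 0.08, and 4 of 5 genes of 4F above 0 with a median of 0.13. Of the 2C genes below 0, Cyp2c38, Cyp2c39 and Cyp2c40 were detected on AAV-GFP arrays only, so the detection filter favoured that sign. Cyp4f39, above 0, was likewise detected in AAV-Cre only. The subfamily counts rested in part on AAV-GFP replicates 1 and 4. Without them 4 of 11 genes of 2C lay below 0 with a median of 0.07, where 3 of the 7 above 0 were not detected on any of the 6 remaining arrays, and the medians were -0.03 for 2D (3 of 7 above 0) and 0.02 for 4F (3 of 5 above 0). The median of family 4 was then 0.04, with 7 of 12 above 0, and without AAV-Cre replicates 3 and 4 it was -0.03, with 6 of 12 above 0. The median SD within the group was 0.34 for AAV-Cre and 0.47 for AAV-GFP over the 43 genes, against 0.28 for AAV-Cre and 0.25 for AAV-GFP over all features, a difference in spread that was not tested.

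**Figure D1:**
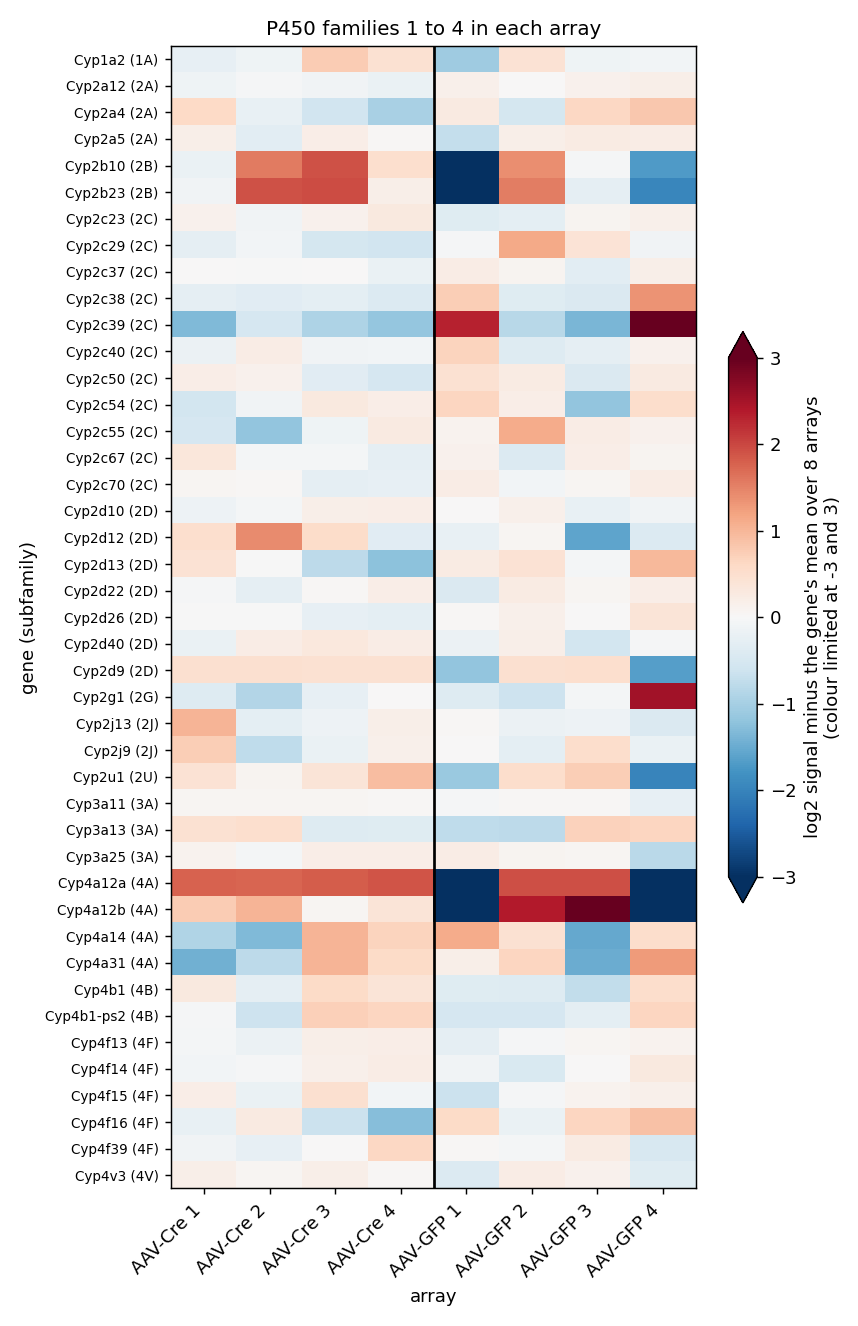
Heat map of the 43 genes (rows, with subfamily) in the 8 arrays (columns, AAV-Cre left of the line, AAV-GFP right of it), where colour is the log2 signal minus the gene's mean over all arrays. The strongest colours were in AAV-GFP replicates 1 and 4, dark blue for Cyp4a12a, Cyp4a12b, Cyp2b10 and Cyp2b23 and dark red for Cyp2c39, while Cyp4a12b was dark red in AAV-GFP replicate 3.

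Part of the spread followed AAV-GFP replicates 1 and 4, the arrays with Xist. For 7 of 43 genes (16.3%, against 4.11% of all features) these arrays were both above the other 6, and for 8 genes (18.6%, against 6.67%) they were both below. The genes above were Cyp2a12, Cyp2c37, Cyp2c38, Cyp2c39, Cyp2c50, Cyp2c54 and Cyp2c70, so 6 of 7 belonged to subfamily 2C. Of these, Cyp2c38 and Cyp2c39 were detected on AAV-GFP replicates 1 and 4 only. They passed the detection filter through those arrays and add nothing to the count above. Of all features, 652 were likewise not detected on the other 6 arrays. The genes below were Cyp2b10, Cyp2b23, Cyp2d9, Cyp2u1, Cyp3a11, Cyp4a12a, Cyp4a12b and Cyp4v3. These counts describe the arrays, which were not picked on any P450 value, and the part of sex or of any other trait of those animals was not tested.

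The male-predominant genes of mouse liver showed this. Cyp4a12a, a fatty acid hydroxylase that makes 20-HETE from arachidonic acid and needs androgen, had 15.87, 15.83, 15.91 and 15.98 in AAV-Cre replicates 1 to 4, against 10.73, 16.03, 16.03 and 6.35 in AAV-GFP replicates 1 to 4. The 4 AAV-Cre arrays and AAV-GFP replicates 2 and 3 lay within a narrow band, and AAV-GFP replicates 1 and 4 lay far under it. The mean difference of 3.61 ± 1.94 (SE, n = 4 per group, limma adjusted p = 0.548) was the largest of the 43, and without AAV-GFP replicates 1 and 4 it was -0.14 ± 0.14. Cyp4a12b, its neighbour on chromosome 4, had 10.67, 10.92, 9.97 and 10.28 in AAV-Cre replicates 1 to 4, against 6.00, 12.29, 13.79 and 5.31 in AAV-GFP replicates 1 to 4. Here the AAV-Cre arrays were in between, below AAV-GFP replicates 2 and 3 and above AAV-GFP replicates 1 and 4, which were not above background. The difference of the measured means, with those arrays at background, was 1.11 ± 1.80 over all arrays (limma adjusted p = 0.843) and -2.58 ± 0.45 without AAV-GFP replicates 1 and 4 (limma adjusted p = 0.813, n = 4 and 2), and this gene was singled out after its values were seen. The 2 genes are close copies, and how far each probe binds the other transcript was not tested.

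Cyp2d9, the 16α-hydroxylase of testosterone in male mice, had 16.05, 16.06, 16.02 and 16.02 in AAV-Cre replicates 1 to 4, against 14.40, 16.07, 16.08 and 13.93 in AAV-GFP replicates 1 to 4. AAV-GFP replicates 1 and 4 were again below the band of the other 6 arrays. The difference was 0.92 ± 0.48 (SE, n = 4 per group, limma adjusted p = 0.536) with all arrays and -0.03 ± 0.14 without those 2. Cyp2u1, a long-chain fatty acid hydroxylase, had 7.81, 7.47, 7.77 and 8.30 in AAV-Cre replicates 1 to 4, against 6.25, 7.91, 8.12 and 5.40 in AAV-GFP replicates 1 to 4, with AAV-GFP replicate 4 not above background. Its difference of 0.91 ± 0.57 (limma adjusted p = 0.571) became -0.18 ± 0.25 without AAV-GFP replicates 1 and 4. All 4 genes of the male-predominant list lay above 0 with all arrays. On the 6 arrays without the pair the differences of Cyp4a12a, Cyp2d9 and Cyp2u1 were within their SE, so the fit gave no direction. For Cyp4a12a and Cyp2d9 all AAV-Cre arrays lay below AAV-GFP replicates 2 and 3, while for Cyp2u1 the groups overlapped. Fewer arrays make such separation easier. The unnormalized signals of Cyp4a12a were 57890 to 59064 in AAV-Cre, against 67875 and 68513 in AAV-GFP replicates 2 and 3. Those of Cyp2d9 on the 6 arrays were 63575 to 70104. Both genes were near the brightest of any probe on an array (70406 to 71285).

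The measured genes of the female-predominant list did not mirror this. Of the 11 genes on the list 4 were measured under a name, Cyp2a4, Cyp2b10, Cyp2c40 and Cyp2g1, so most of it was not seen. Cyp2c38 and Cyp2c39, detected only in AAV-GFP replicates 1 and 4, were not on the list. Cyp2a4, a steroid 15α-hydroxylase, had 13.33, 12.51, 12.17 and 11.76 in AAV-Cre replicates 1 to 4, against 13.01, 12.22, 13.36 and 13.55 in AAV-GFP replicates 1 to 4, with a difference of -0.60 ± 0.38 (SE, n = 4 per group, limma adjusted p = 0.579). When AAV-GFP replicates 1 and 4 were left out it was -0.35 ± 0.49, and when AAV-Cre replicate 4 was, -0.37. The 4 arrays between 13.01 and 13.55 were AAV-Cre replicate 1 and AAV-GFP replicates 1, 3 and 4, so the arrays with Xist did not stand alone. Cyp2g1, known from the olfactory mucosa, had 7.93, 7.44, 8.07 and 8.33 in AAV-Cre replicates 1 to 4, against 7.93, 7.70, 8.26 and 10.84 in AAV-GFP replicates 1 to 4. Only AAV-GFP replicate 4 was high. Cyp2c40 passed detection on 1 array, AAV-GFP replicate 1, at 6.35, and its other arrays lay between 5.30 and 5.91.

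**Figure D2:**
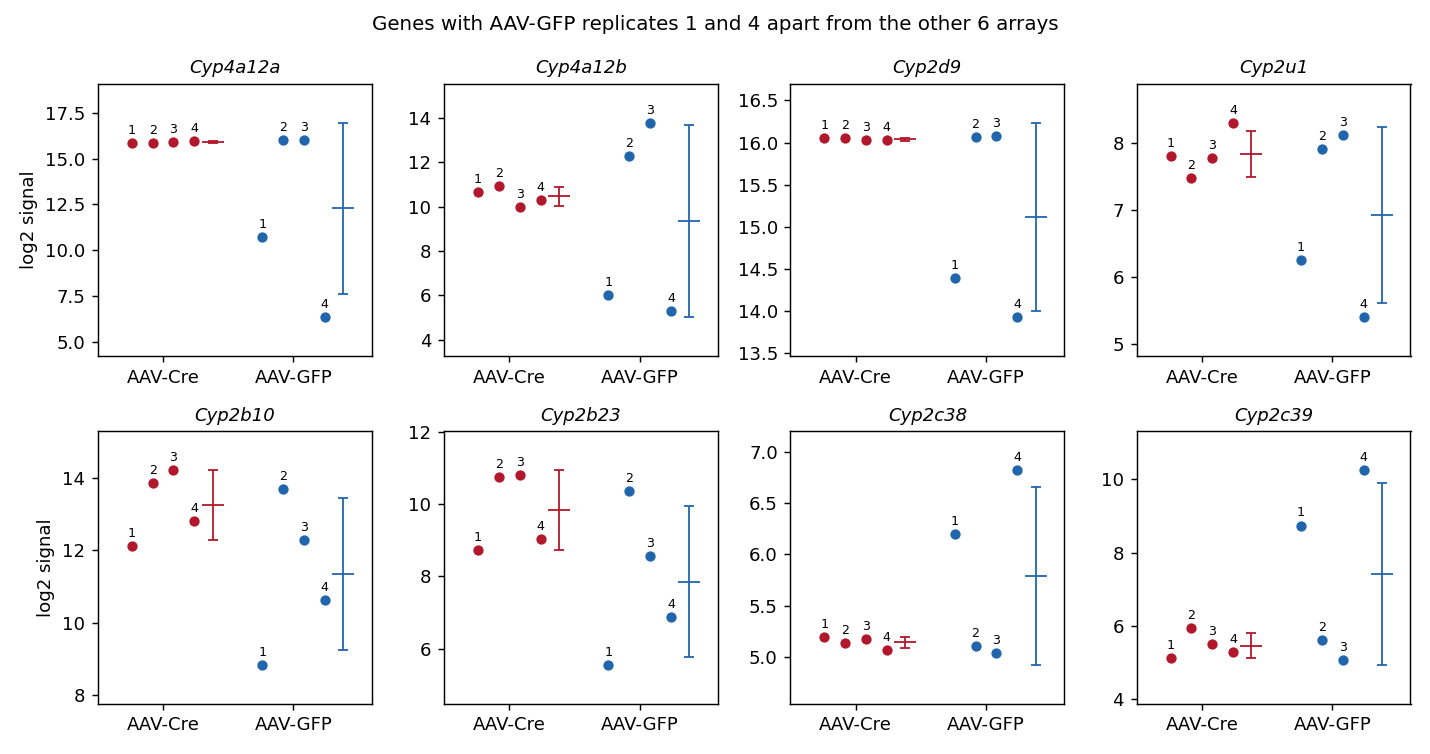
Log2 signal (vertical axes, a scale of its own in each panel) of 8 genes in AAV-Cre (red, left) and AAV-GFP (blue, right), with the replicate number over each point and the mean ± SD (n = 4) beside it. AAV-GFP replicates 1 and 4 lie below the other 6 arrays in the first 6 panels and above them for Cyp2c38 and Cyp2c39.

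Subfamily 2B, whose genes are the classical targets of the receptor CAR, had the largest median difference, 1.94 over 2 genes. Cyp2b10, the phenobarbital-inducible drug oxidase that is more abundant in female mice, had 12.12, 13.88, 14.22 and 12.81 in AAV-Cre replicates 1 to 4, against 8.83, 13.71, 12.28 and 10.61 in AAV-GFP replicates 1 to 4. It was lowest on the arrays with Xist. The difference was 1.90 ± 0.97 (SE, n = 4 per group, limma adjusted p = 0.535), and 0.26 ± 0.67 without AAV-GFP replicates 1 and 4. Its second probe went the same way, by 0.79. Cyp2b23, which lies in the same cluster on chromosome 7, had 8.74, 10.75, 10.80 and 9.02 in AAV-Cre replicates 1 to 4, against 5.56, 10.37, 8.58 and 6.88 in AAV-GFP replicates 1 to 4. Both genes ran in parallel over the arrays, high in AAV-Cre replicates 2 and 3 and AAV-GFP replicate 2 and lowest in AAV-GFP replicate 1. AAV-GFP replicate 1 was not above background for Cyp2b23. With it at its measured signal, the difference of Cyp2b23 was 1.98 ± 0.98 (limma adjusted p = 0.535), and 0.36 ± 0.78 without AAV-GFP replicates 1 and 4.

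Subfamily 2C, which oxidises drugs, arachidonic acid and bile acids, had 11 members, all on chromosome 19. Cyp2c39 and Cyp2c38 were detected only in AAV-GFP replicates 1 and 4. Cyp2c39 had 5.12, 5.93, 5.50 and 5.27 in AAV-Cre replicates 1 to 4, against 8.74, 5.61, 5.06 and 10.25 in AAV-GFP replicates 1 to 4. No AAV-Cre array was above background, so AAV-Cre was set at the lowest detected signal of each array. On the means Cyp2c39 was then 2.26-fold higher in AAV-GFP, and 2 of 4 AAV-GFP arrays carried this. AAV-GFP replicates 2 and 3, also not above background, entered at their measured signal, so this fold is not a strict bound. The gene passed the detection filter only through AAV-GFP replicates 1 and 4. The difference of the measured means was -1.96 ± 1.05 (SE, n = 4 per group, limma adjusted p = 0.547) and 0.12 ± 0.28 without AAV-GFP replicates 1 and 4. Cyp2c38 had 5.19, 5.13, 5.18 and 5.06 in AAV-Cre replicates 1 to 4, against 6.20, 5.10, 5.04 and 6.82 in AAV-GFP replicates 1 to 4, with -0.65 ± 0.37 (limma adjusted p = 0.555) over all arrays and 0.07 ± 0.14 without the pair. For both genes the remaining 6 arrays could not be ordered, as all were under the detection limit.

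Cyp2c29 and Cyp2c55, targets of CAR and PXR, did not follow the Xist arrays. Cyp2c29 had 9.77, 9.95, 9.50 and 9.46 in AAV-Cre replicates 1 to 4, against 10.001, 11.16, 10.45 and 9.92 in AAV-GFP replicates 1 to 4. AAV-GFP replicate 2 was highest, and AAV-GFP replicate 4 lay within the AAV-Cre range. The difference was -0.71 ± 0.27 (SE, n = 4 per group, limma adjusted p = 0.535), -1.14 ± 0.26 when AAV-GFP replicates 1 and 4 were left out, and -0.45 when AAV-GFP replicate 2 was. Cyp2c55, which makes hydroxylated arachidonic acid, had 8.64, 7.96, 9.02 and 9.43 in AAV-Cre replicates 1 to 4, against 9.25, 10.26, 9.36 and 9.28 in AAV-GFP replicates 1 to 4. AAV-Cre replicate 2 was lowest and AAV-GFP replicate 2 highest, and AAV-Cre replicate 4 lay above 3 of 4 AAV-GFP arrays. Its difference was -0.78 ± 0.34 (limma adjusted p = 0.535), -1.05 ± 0.44 when AAV-GFP replicates 1 and 4 were left out, and -0.51 when AAV-Cre replicate 2 was.

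The other 7 members of 2C had differences from -0.26 (Cyp2c50) to 0.22 (Cyp2c23), and Cyp2c23 was the only member of 2C above 0 over all arrays, where 7 of 11 were above 0 without AAV-GFP replicates 1 and 4. Of those below 0 over all arrays, Cyp2c38, Cyp2c39 and Cyp2c40 were detected on AAV-GFP arrays only. Cyp2c50 had 15.76, 15.70, 15.22 and 15.07 in AAV-Cre replicates 1 to 4, against 16.02, 15.80, 15.13 and 15.84 in AAV-GFP replicates 1 to 4. Low arrays were found in both groups, AAV-Cre replicates 3 and 4 and AAV-GFP replicate 3, and its other 2 probes gave -0.99 and -0.17. Cyp2c37, another CAR target, had 15.83, 15.81, 15.84 and 15.62 in AAV-Cre replicates 1 to 4, against 16.05, 15.90, 15.50 and 15.99 in AAV-GFP replicates 1 to 4, highest on the arrays with Xist. Cyp2c23, an arachidonic acid epoxygenase, had 15.67, 15.43, 15.68 and 15.83 in AAV-Cre replicates 1 to 4, against 15.17, 15.25, 15.63 and 15.69 in AAV-GFP replicates 1 to 4, so 2 AAV-GFP arrays were below the AAV-Cre range and 2 within it. Cyp2c67 had 15.92, 15.52, 15.52 and 15.31 in AAV-Cre replicates 1 to 4, against 15.71, 15.17, 15.78 and 15.64 in AAV-GFP replicates 1 to 4, with a mean difference of -0.01. Cyp2c70, which makes the muricholic acids of mouse bile, had 15.94, 15.92, 15.63 and 15.65 in AAV-Cre replicates 1 to 4, against 16.10, 15.81, 15.95 and 16.10 in AAV-GFP replicates 1 to 4.

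Promoters of genes that stood apart in AAV-GFP replicates 1 and 4, and of Cyp2c29, which did not, are shown, because GATA4 was the targeted factor and related genes within a cluster can share elements. RefSeq promoters of GRCm38.p6, from 250 bases before to 50 after the start, were matched for 31 of the 43 genes by symbol. The letters AGATAA or AGATAG, and TGATAA or TGATAG, which GATA factors bind, were searched on both strands, overlaps allowed, and matches are in capitals. They were found in 19 of 37 promoters of these genes (51.4%), against 9778 of 32851 promoters of all genes (29.8%). All 9 genes of 2C with a promoter held a match, as did 3 of 3 of 2A, 0 of 2 of 2B, 1 of 4 of 2D, 1 of 3 of 3A and 1 of 5 of 4F, so related copies made up much of the count. The letters TTCNNNGAA, bound by STAT5, were in 2 of 37 promoters, against 8.3% of all. These matches describe letters in a short window and no binding was measured here.
Cyp2c39 (chr19:39347096-39347395, plus strand, the first of 2): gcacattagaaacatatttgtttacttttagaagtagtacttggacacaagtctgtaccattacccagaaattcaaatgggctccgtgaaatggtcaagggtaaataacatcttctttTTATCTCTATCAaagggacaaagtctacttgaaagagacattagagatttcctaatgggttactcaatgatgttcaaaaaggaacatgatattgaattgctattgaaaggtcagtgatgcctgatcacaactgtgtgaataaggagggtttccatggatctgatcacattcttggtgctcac
Cyp2c38 (chr19:39463026-39463325, minus strand): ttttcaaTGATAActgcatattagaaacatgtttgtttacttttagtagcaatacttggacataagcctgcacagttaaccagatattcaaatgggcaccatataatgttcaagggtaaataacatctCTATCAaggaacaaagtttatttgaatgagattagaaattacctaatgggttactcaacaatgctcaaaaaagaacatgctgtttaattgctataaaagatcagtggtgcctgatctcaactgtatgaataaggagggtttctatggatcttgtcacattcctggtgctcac
Cyp2c29 (chr19:39286835-39287134, plus strand): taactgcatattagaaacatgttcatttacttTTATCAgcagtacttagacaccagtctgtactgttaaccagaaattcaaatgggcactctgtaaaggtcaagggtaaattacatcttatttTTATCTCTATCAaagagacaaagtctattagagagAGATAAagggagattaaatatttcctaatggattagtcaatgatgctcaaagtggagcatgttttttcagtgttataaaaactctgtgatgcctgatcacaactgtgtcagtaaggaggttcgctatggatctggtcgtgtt
Cyp2b10 (chr7:25897408-25897707, plus strand): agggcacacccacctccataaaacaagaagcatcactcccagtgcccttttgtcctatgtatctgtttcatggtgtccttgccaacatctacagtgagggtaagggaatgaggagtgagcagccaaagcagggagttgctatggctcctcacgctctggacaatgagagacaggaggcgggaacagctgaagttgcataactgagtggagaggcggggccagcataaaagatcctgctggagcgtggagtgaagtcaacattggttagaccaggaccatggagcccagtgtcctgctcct
Cyp2b23 (chr7:26686381-26686680, minus strand): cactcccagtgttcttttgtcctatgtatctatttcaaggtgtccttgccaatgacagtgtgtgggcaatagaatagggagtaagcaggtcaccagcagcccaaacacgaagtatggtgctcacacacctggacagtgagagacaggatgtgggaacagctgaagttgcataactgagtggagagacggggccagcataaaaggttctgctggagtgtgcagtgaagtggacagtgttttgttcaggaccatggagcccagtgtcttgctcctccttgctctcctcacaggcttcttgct
Cyp2d9 (chr15:82452127-82452426, plus strand): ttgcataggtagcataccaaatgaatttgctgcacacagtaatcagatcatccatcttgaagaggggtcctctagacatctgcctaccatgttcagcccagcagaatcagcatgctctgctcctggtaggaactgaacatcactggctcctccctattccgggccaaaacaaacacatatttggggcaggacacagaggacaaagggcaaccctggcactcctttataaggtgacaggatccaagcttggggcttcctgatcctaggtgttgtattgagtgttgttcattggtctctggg
The printed promoter of Cyp2c39 held 2 matches side by side, from position -132. Its second promoter, neither printed nor aligned, held 3, at -156, -104 and -98. The matches of Cyp2c29 stood at -127 and -121, with 2 more at -218 and -92, and those of Cyp2c38 at -243 and -122. The printed promoter of Cyp2c39 shared 78.1% of aligned positions with Cyp2c38 and 76.0% with Cyp2c29, although Cyp2c29 did not follow the same arrays. Cyp2b10 and Cyp2b23 shared 66.9%, and neither held a match, nor did Cyp2d9.

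Subfamily 2D oxidises amines and steroids, and its 7 genes diverged. Cyp2d12 had 8.32, 9.22, 8.37 and 7.47 in AAV-Cre replicates 1 to 4, against 7.58, 7.88, 6.24 and 7.40 in AAV-GFP replicates 1 to 4. The groups overlapped in AAV-Cre replicate 4, which lay below AAV-GFP replicates 1 and 2, and AAV-GFP replicate 3 was not above background. The difference was 1.07 ± 0.43 (SE, n = 4 per group, limma adjusted p = 0.535), 1.29 ± 0.59 when AAV-GFP replicates 1 and 4 were left out, and 0.72 when AAV-GFP replicate 3 was. The pseudogene Cyp2d13 had 10.45, 10.002, 9.23 and 8.77 in AAV-Cre replicates 1 to 4, against 10.26, 10.43, 9.95 and 10.97 in AAV-GFP replicates 1 to 4, with a difference of -0.79 ± 0.37 (limma adjusted p = 0.535). AAV-Cre replicates 3 and 4 were low, while AAV-Cre replicates 1 and 2 lay within the AAV-GFP range. Without AAV-Cre replicate 4 the difference was -0.51, and without AAV-Cre replicates 3 and 4 it was -0.18. Cyp2d26 had 15.09, 15.09, 14.86 and 14.82 in AAV-Cre replicates 1 to 4, against 15.13, 15.26, 15.12 and 15.50 in AAV-GFP replicates 1 to 4, so all AAV-Cre arrays were below all AAV-GFP arrays, with a difference of -0.29 ± 0.14 (limma adjusted p = 0.535). Its other 2 probes went the other way, by 0.13 and 0.15, so the direction for this gene depended on the probe. Cyp2d40 had 12.50, 12.91, 13.02 and 12.91 in AAV-Cre replicates 1 to 4, against 12.51, 12.87, 12.15 and 12.67 in AAV-GFP replicates 1 to 4, a difference of 0.29 ± 0.19 (limma adjusted p = 0.587). AAV-GFP replicate 3 was its lowest array, without which the difference was 0.15, and the other 3 AAV-GFP arrays lay within the AAV-Cre range. Cyp2d10 and Cyp2d22 differed by 0.08 and -0.04, and their arrays overlapped.

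**Figure D3:**
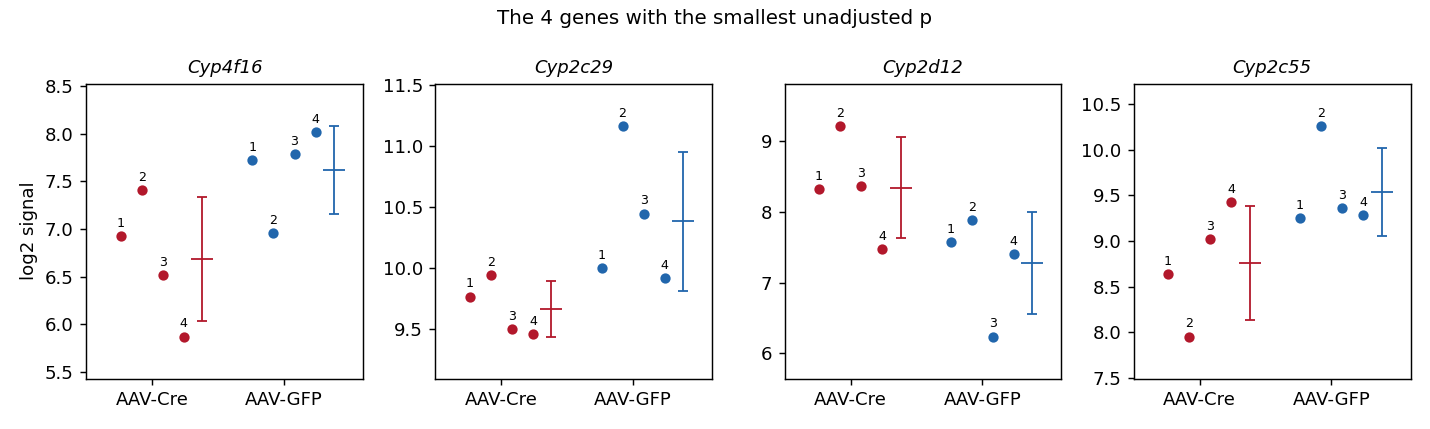
Log2 signal (vertical axes, a scale of its own in each panel) of the 4 genes with the smallest unadjusted p in AAV-Cre (red, left) and AAV-GFP (blue, right), with replicate numbers and the mean ± SD (n = 4). In all 4 panels at least 1 array of AAV-Cre lies within the range of AAV-GFP.

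In subfamily 4A, Cyp4a14 and Cyp4a31, which PPARα induces in fasting to hydroxylate fatty acids, varied within both groups. Cyp4a14 had 12.57, 12.16, 14.49 and 14.14 in AAV-Cre replicates 1 to 4, against 14.59, 13.94, 11.95 and 14.01 in AAV-GFP replicates 1 to 4. Cyp4a31 had 9.80, 10.46, 12.27 and 11.82 in AAV-Cre replicates 1 to 4, against 11.42, 11.90, 9.76 and 12.51 in AAV-GFP replicates 1 to 4. AAV-Cre replicates 1 and 2 and AAV-GFP replicate 3 were the 3 lowest arrays for both genes, and the other 5 were high. The differences of -0.28 ± 0.68 for Cyp4a14 and -0.31 ± 0.69 for Cyp4a31 (SE, n = 4 per group, limma adjusted p = 0.902 and 0.891) were smaller than their SE. The sign of Cyp4a14 turned to 0.40 ± 0.83 without AAV-GFP replicates 1 and 4. Cyp2c54 had 11.29, 11.74, 12.15 and 12.06 in AAV-Cre replicates 1 to 4, against 12.49, 12.05, 10.68 and 12.38 in AAV-GFP replicates 1 to 4, with the same 3 arrays lowest. Cyp3a13 ran close to the other way, at 13.98, 14.04, 13.13 and 13.15 in AAV-Cre replicates 1 to 4, against 12.77, 12.73, 14.21 and 14.17 in AAV-GFP replicates 1 to 4, low in AAV-Cre replicates 3 and 4 and AAV-GFP replicates 1 and 2. Ppara itself lay between 8.34 and 9.59 on all 8 arrays.

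**Figure D4:**
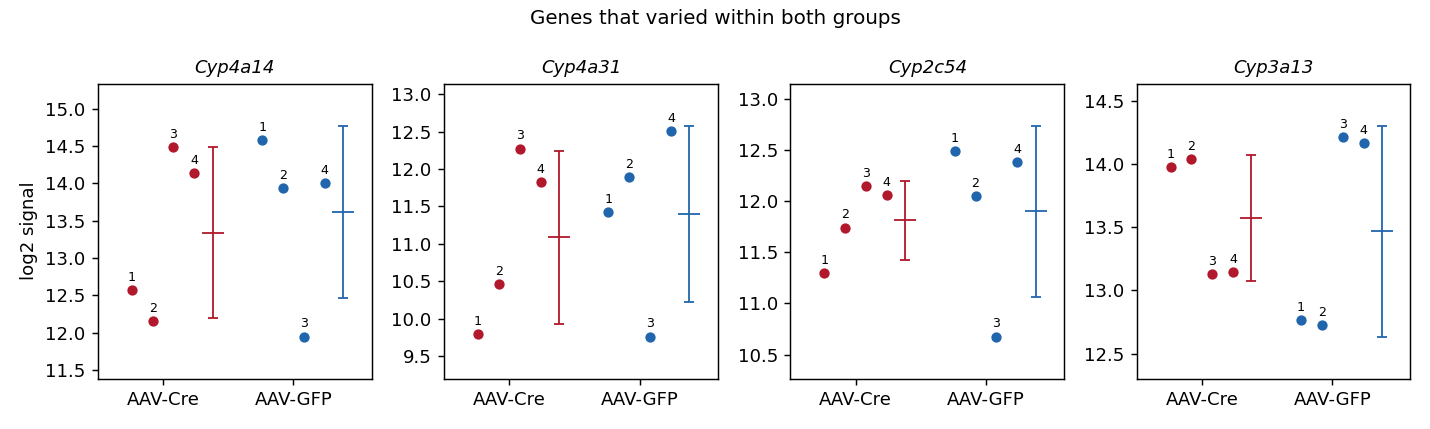
Log2 signal (vertical axes, a scale of its own in each panel) of Cyp4a14, Cyp4a31, Cyp2c54 and Cyp3a13 in AAV-Cre (red, left) and AAV-GFP (blue, right), with replicate numbers and the mean ± SD (n = 4). The first 3 genes were lowest in AAV-Cre replicates 1 and 2 and AAV-GFP replicate 3, and the groups overlapped in every panel.

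Subfamily 3A, which clears many drugs, had differences of 0.10, 0.10 and 0.23. Cyp3a11, the main PXR target, had 16.07, 16.09, 16.08 and 16.06 in AAV-Cre replicates 1 to 4, against 15.998, 16.05, 16.06 and 15.78 in AAV-GFP replicates 1 to 4, with every AAV-Cre array above every AAV-GFP array and a difference of 0.10 ± 0.12 (SE, n = 4 per group, limma adjusted p = 0.756), and 0.02 ± 0.14 without AAV-GFP replicates 1 and 4. The groups were apart only by AAV-Cre replicate 4 at 16.063 and AAV-GFP replicate 3 at 16.0603. The unnormalized signal of this probe was 58078 to 69994, also near the brightest of any probe. On that scale AAV-Cre replicate 4 (68145) lay below AAV-GFP replicate 3 (69175), so the groups overlapped before normalization. In all, 12 of the 43 genes had an array above 60000. Cyp3a25 had 15.91, 15.75, 16.02 and 16.02 in AAV-Cre replicates 1 to 4, against 16.02, 15.88, 15.86 and 15.001 in AAV-GFP replicates 1 to 4, and only AAV-GFP replicate 4 was low. Cyp3a13 differed by 0.10 ± 0.42 (limma adjusted p = 0.944), and its other probes gave 0.46 and 0.55.

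Cyp1a2, the only 1 of 3 listed AhR targets measured under a name, metabolises caffeine and aromatic amines. It had 14.36, 14.47, 15.35 and 15.05 in AAV-Cre replicates 1 to 4, against 13.53, 15.03, 14.47 and 14.52 in AAV-GFP replicates 1 to 4, and its difference was 0.42 ± 0.34 (SE, n = 4 per group, limma adjusted p = 0.654). AAV-GFP replicate 1 was the lowest array, and without it the difference was 0.14, against 0.63 without AAV-GFP replicate 2. Cyp2a5, the coumarin 7-hydroxylase, had 16.04, 15.53, 16.05 and 15.88 in AAV-Cre replicates 1 to 4, against 15.15, 16.04, 16.09 and 16.07 in AAV-GFP replicates 1 to 4, with 0.04 ± 0.24 (limma adjusted p = 0.966), and the other 4 of its 5 probes were below 0. Cyp2a12, a testosterone hydroxylase, had 15.49, 15.60, 15.52 and 15.43 in AAV-Cre replicates 1 to 4, against 15.79, 15.63, 15.76 and 15.80 in AAV-GFP replicates 1 to 4. All its AAV-Cre arrays lay below all AAV-GFP arrays, with a difference of -0.23 ± 0.11 (limma adjusted p = 0.535), and the 2 arrays with Xist were the highest. Without them the groups still did not overlap, at -0.18 ± 0.15. Over the 6 remaining arrays, 3 of 43 P450 genes (6.98%, against 5.89% of all features) had an unadjusted p under 0.05, namely Cyp2c29, Cyp4a12b and Cyp4b1, and 0 passed the adjusted test.

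Subfamily 4F, which inactivates leukotrienes and other lipid mediators, held the gene with the smallest unadjusted p. Cyp4f16 had 6.93, 7.41, 6.52 and 5.87 in AAV-Cre replicates 1 to 4, against 7.72, 6.96, 7.78 and 8.02 in AAV-GFP replicates 1 to 4. AAV-Cre replicate 4 was lowest and not above background, while AAV-Cre replicate 2 lay above AAV-GFP replicate 2. The difference was -0.94 ± 0.35 (SE, n = 4 per group, limma adjusted p = 0.535), and -0.69 ± 0.45 without AAV-GFP replicates 1 and 4. The other 4 genes of 4F had differences from 0.07 (Cyp4f13) to 0.21 (Cyp4f15). Cyp4b1, which activates the lung toxin ipomeanol, had 7.70, 7.13, 7.97 and 7.80 in AAV-Cre replicates 1 to 4, against 7.04, 7.02, 6.67 and 7.94 in AAV-GFP replicates 1 to 4, with 0.49 ± 0.29 (limma adjusted p = 0.561) over all arrays and 0.81 ± 0.27 without AAV-GFP replicates 1 and 4. AAV-GFP replicate 4 reached the AAV-Cre range, and leaving it out gave 0.74, while leaving out AAV-GFP replicate 3 gave 0.32. Cyp4v3, a fatty acid hydroxylase whose human counterpart CYP4V2 is mutated in a retinal dystrophy, had 15.07, 14.95, 15.08 and 14.93 in AAV-Cre replicates 1 to 4, against 14.49, 15.12, 15.02 and 14.54 in AAV-GFP replicates 1 to 4, and differed by 0.21 ± 0.17 (limma adjusted p = 0.653), or by -0.06 ± 0.15 without AAV-GFP replicates 1 and 4. The pseudogene Cyp4b1-ps2 had 7.44, 6.85, 8.19 and 8.11 in AAV-Cre replicates 1 to 4, against 6.96, 6.97, 7.18 and 8.12 in AAV-GFP replicates 1 to 4, and AAV-GFP replicate 4 again matched the high AAV-Cre arrays.

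Of the remaining genes of family 4, Cyp4f14, which hydroxylates leukotriene B4, had 15.58, 15.61, 15.80 and 15.87 in AAV-Cre replicates 1 to 4, against 15.54, 15.19, 15.66 and 15.94 in AAV-GFP replicates 1 to 4. Cyp4f15 had 13.52, 13.12, 13.79 and 13.25 in AAV-Cre replicates 1 to 4, against 12.68, 13.29, 13.42 and 13.47 in AAV-GFP replicates 1 to 4. The AAV-GFP range enclosed 4 of 4 AAV-Cre arrays for Cyp4f14 and 2 of 4 for Cyp4f15. Cyp4f39, known for the very long fatty acids of skin ceramides, and Cyp2j13 were each detected on 1 array, AAV-Cre replicate 4 and AAV-Cre replicate 1, so their differences of 0.14 and 0.37 carry no order between the groups. Cyp2j9, which hydroxylates arachidonic acid, had 10.31, 8.81, 9.36 and 9.72 in AAV-Cre replicates 1 to 4, against 9.58, 9.28, 10.10 and 9.36 in AAV-GFP replicates 1 to 4, and Cyp2g1 differed by -0.74, with the high AAV-GFP replicate 4 in the mean.

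**Figure D5:**
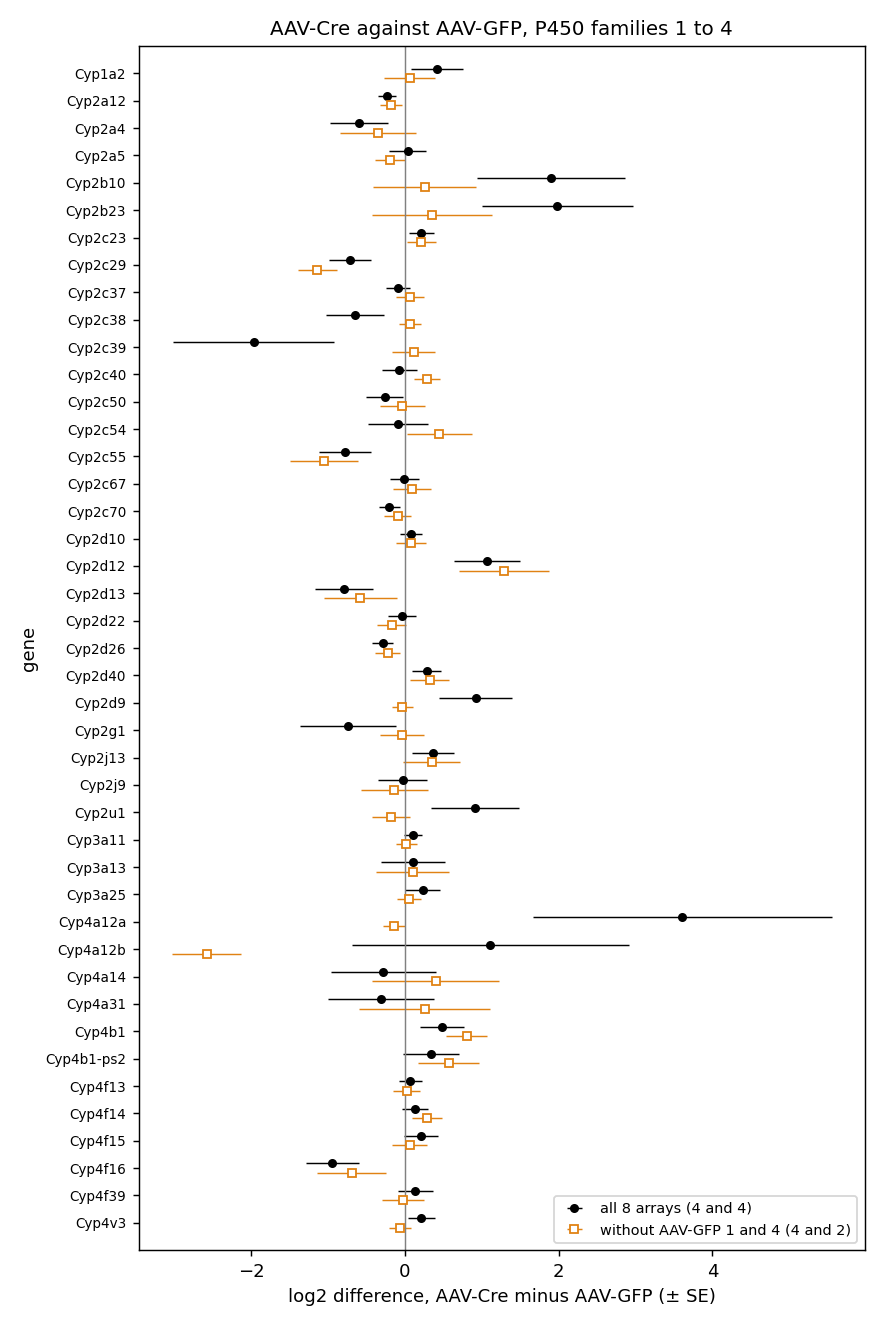
Log2 difference of each gene, AAV-Cre minus AAV-GFP (horizontal axis, ± SE), over all 8 arrays (black circles) and without AAV-GFP replicates 1 and 4 (orange squares, 4 against 2 arrays). Without the pair Cyp4a12a stood at -0.14 and Cyp4a12b at -2.58, against 3.61 and 1.11 over all arrays, while Cyp2c29, Cyp2d12 and Cyp4f16 stayed on the same side of 0.

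No gene passed the adjusted test in the lists around the P450s. Of 20 regulators 16 were measured, with 9 above and 7 below 0, and an unadjusted p under 0.05 was reached by 2 in each direction, where 4.99% of all features were higher and 4.07% lower at that p. Bcl6, the repressor more abundant in male liver, had 12.91, 11.27, 9.89 and 12.47 in AAV-Cre replicates 1 to 4, against 8.66, 9.30, 10.49 and 10.51 in AAV-GFP replicates 1 to 4, a difference of 1.90 ± 0.68 (limma adjusted p = 0.535). Foxa2, a pioneer factor of the liver, had 8.05, 8.48, 8.85 and 8.24 in AAV-Cre replicates 1 to 4, against 8.88, 9.83, 9.04 and 8.95 in AAV-GFP replicates 1 to 4, with -0.77 ± 0.25 (limma adjusted p = 0.535). Foxa1 went the other way, by 0.71 ± 0.28 (limma adjusted p = 0.535). Nr1i2, the gene of PXR, differed by -0.55 ± 0.21 (limma adjusted p = 0.535). Cux2, a female-predominant factor, had 5.45, 5.52, 5.18 and 5.22 in AAV-Cre replicates 1 to 4, against 10.10, 5.44, 5.51 and 11.43 in AAV-GFP replicates 1 to 4, detected in AAV-GFP replicates 1 and 4 only. Its unadjusted limma p was 0.061. Of the 5 electron donors 4 were measured, 2 above and 2 below 0. Pgrmc1, a membrane protein that binds P450s, had 12.97, 13.16, 10.95 and 10.63 in AAV-Cre replicates 1 to 4, against 13.37, 13.22, 12.99 and 13.02 in AAV-GFP replicates 1 to 4, low in AAV-Cre replicates 3 and 4. Among the 10 measured genes of other P450 families, most of which act on sterols, bile acids or steroids, 3 were above and 7 below 0, with a median of -0.26. Cyp39a1, an oxysterol 7α-hydroxylase, differed by -1.24 ± 0.32 and Cyp7b1 by 0.71 ± 0.22 (limma adjusted p = 0.535 for both).

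Of the CAR and PXR targets, 5 of 5 were measured, with 2 above and 3 below 0. Of the genes expressed around the central vein, 5 of 6 were measured, with 3 above and 2 below 0, and the 1 listed periportal gene, Cyp2f2, had no named probe here. The same held for Cyp2b9, Cyp2b13, Cyp2e1, Cyp3a41a and Cyp4a10, so these genes were not analysed here.

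The RNA was from hepatocyte preparations, and markers of other liver cells mostly lay higher in AAV-Cre, none past the adjusted test. All 7 measured sinusoidal endothelial markers of 8 listed and all 8 measured macrophage markers of 9 listed lay above 0 in AAV-Cre, with medians of 0.60 and 0.51, of which 3 and 4 had an unadjusted p under 0.05, against 4.99% of all features in this direction. The endothelial median was 0.05 to 0.79 above each gene's mean in AAV-Cre arrays, against -0.53 to 0.23 in AAV-GFP arrays. The macrophage median ran from 0.02 to 0.70 in AAV-Cre, against -0.67 to 0.02 in AAV-GFP. The 8 measured hepatocyte markers of 10 listed had a median of -0.15, with 2 above and 6 below 0. Tat, among those below 0, was detected on 1 array only, in AAV-GFP. The detection filter favoured its sign, so it adds nothing to the count below 0. For stellate cells 4 of 8 markers were measured, with 3 above 0 and a median of 0.33. Marco of the macrophage list, and Pdgfra and Col3a1 of the stellate list, were detected on AAV-Cre arrays only. The detection filter thus favoured a sign above 0 for these genes, which add nothing to the counts above 0. For cholangiocytes 1 of 5 was measured, Sox9, at 1.19 ± 0.29 (limma adjusted p = 0.535). No lymphocyte marker of 6 listed was measured under a name. In bulk RNA, fewer cells of a type and less RNA per cell cannot be told apart, and the part of other cells in the P450 values was not tested.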

How the data were processed

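Total RNA of 8 hepatocyte samples was amplified, biotin-labelled and hybridised by the authors to 1 bead array each, and signal and detection were exported with GenomeStudio. The deposited table holds each probe's signal as a linear intensity, neither background-subtracted nor normalized, and a detection p-value that the authors' software derived from the negative control beads. A second deposited table holds intensities after the authors' quantile normalization for 16820 probes, and matched a quantile normalization of the first within 0.0389 on the log2 scale. Of its probes 14408 had 1 gene symbol, and 2798 detected probes outside it are unnamed here, so some P450 genes may have gone unnamed.

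Intensities were background-corrected by normexp (offset 16), quantile-normalized and log2-transformed by the neqc function of limma 3.58.1 under R 4.3.3. The filter kept the 19618 probes that were detected (0.05 or less) on at least 1 array. Each gene was represented by its brightest probe. Groups were compared with limma's moderated test (lmFit, then eBayes), with Benjamini-Hochberg adjustment over 14850 features and a threshold of 0.25, 1 of the thresholds of the study's methods. The median SE of a difference was 0.201. The SAM statistic, the test named in the methods, was an alternative. For the fold of Cyp2c39, each AAV-Cre array was set at the lowest signal among its detected probes, and AAV-GFP arrays kept their measured signal. Before use, the test was required to recover most of the larger known changes in simulated data. No share was required for the smaller changes. The simulated noise was independent between features and held no split between arrays.

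The genes given full statistics were any called ones, the 8 with the smallest unadjusted p in each direction, and 17 chosen by role, of which 11 were measured, 22 genes in all. Each context list could add up to 3 genes by the smallest unadjusted p, and Foxa1, Cux2 and Ppara were named beyond this limit. Members, lists and alternatives were chosen with earlier results of these data known. Alternatives changed the normalization, offset, background correction, table of values, filter on detection, choice of probe, array weights, model of the variance, Xist as a term, replicate block, the test and the arrays used. Promoters were read from RefSeq (GRCm38.p6). Figures were drawn with matplotlib 3.10.9.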

Additional observations from a re-analysis of the deposited data

Results flagged for a closer look

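In 4 of 86 groups of 4 arrays (43 genes in each group), 1 array stood apart from the other 3 by a gap, relative to the group's range, above Dixon's critical value. Chance flags about 1 in 20 groups. Cyp2c37 had a low value of 15.62 in AAV-Cre replicate 4, where the next array was at 15.81. Cyp2a5 was low in AAV-GFP replicate 1, at 15.15 (next 16.04). Cyp3a25 was low in AAV-GFP replicate 4, at 15.0005 (next 15.86), and Cyp2c55 was high in AAV-GFP replicate 2, at 10.26 (next 9.36).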

How the results depend on the processing

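Under all 24 alternatives 0 P450 genes were called. The lowest adjusted p of a P450 gene was 0.31, for Cyp2d13 without AAV-Cre replicate 1. Of 504 differences recomputed for 22 genes, 476 kept their sign and 28 turned, and 14 genes never turned. Cyp2c38 and Cyp2c39 could not be given when detection on all arrays of a group was required. The cause of the changes below was not tested.

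The count of all features called, 1 with the main settings, was 2 with scaling to the 75th percentile, cyclic loess, an offset of 50, no background correction, detection on all arrays of a group, a trended robust variance, array weights or Xist as a term, 3 with the authors' value table, 27 with SAM, and 1 to 5 with 1 array left out. P450 genes at an unadjusted p under 0.05, 3 in the main fit, numbered 5 with the 75th percentile, an offset of 50, no background correction, the probe with the smallest p or Xist as a term, and 6 with the value table, no detection filter or a trended robust variance. With 1 array left out they numbered between 0, when it was AAV-Cre replicate 3, and 9, when it was AAV-GFP replicate 2. P450 genes whose groups did not overlap, 3 with all arrays, numbered 0 with the 75th percentile, 5 with cyclic loess and 3 to 6 with 1 array left out. They numbered 9 when AAV-GFP replicates 1 and 4 were left out and 5 when AAV-Cre replicates 3 and 4 were, where fewer arrays make separation easier.

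The median of all P450 genes was 0.16 with the 75th percentile, which also moved the median of all features to 0.12 and the share of features above 0 to 67.1%, against 56.6% in the main fit. It was -0.020 without AAV-Cre replicates 3 and 4 and 0.03 to 0.12 with 1 array left out. The median of family 2 was 0.032 with the 75th percentile, -0.20 with the smallest p, 0.0042 with Xist as a term and -0.17 to -0.020 with 1 array left out. That of family 3 was 0.36 with the 75th percentile, 0.23 with cyclic loess, the mean of probes or the smallest p, and 0.04 to 0.29 with 1 array left out. That of family 4 was 0.04 when AAV-GFP replicates 1 and 4 were left out, -0.03 when AAV-Cre replicates 3 and 4 were, and 0.08, without AAV-GFP replicate 1, to 0.26, without AAV-GFP replicate 3.

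Without AAV-GFP replicates 1 and 4 the difference was -0.14 for Cyp4a12a, -0.033 for Cyp2d9, -0.18 for Cyp2u1, 0.069 for Cyp2c38 and 0.12 for Cyp2c39, and with Xist as a term it was -0.21, -0.043, -0.20, 0.080 and 0.15 in the same order. Cyp4a14 was 0.40 without those arrays, 0.41 with Xist as a term, 0.051 with array weights and -0.84 to 0.11 with 1 array left out. Cyp2a5 was -0.19 without those arrays, -0.18 with Xist as a term, -0.053 without AAV-Cre replicates 3 and 4, -0.060 with the mean of probes, -0.073 with the smallest p, -0.026 with array weights and -0.19 to 0.15 with 1 array left out. Cyp3a13 was -0.14 to 0.35 with 1 array left out. Without AAV-Cre replicates 3 and 4 the difference was 0.030 for Cyp1a2, -0.12 for Cyp2a4, -1.24 for Cyp2c55, -0.16 for Cyp2d26, 0.16 for Cyp2d40, 0.54 for Cyp3a13, -1.26 for Cyp4a14, 0.25 for Cyp4b1 and -0.45 for Cyp4f16, each over 1.5 times from its value over all arrays.

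With a replicate block 0 P450 genes were called and 4 had an unadjusted p under 0.05. Same-numbered arrays correlated by 0.0244 to 0.19 in their deviations from the group means, and 3 of 4 AAV-Cre arrays matched their own number best. The labels name no pairs, and these values cannot settle whether the numbers mark pairs. For its RT-qPCR the paper compared the groups by a paired test. The main fit left the arrays unpaired, with the replicate block as the alternative.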
